A study of Mus musculus with 20 samples.

Results

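Gene sets of the RNA-handling machinery were followed across 7 comparisons of mouse myeloid cells and melanoma lines. The sets were chosen by name: those from KEGG, REACTOME, BIOCARTA or PID whose names hold splicing, mRNA, tRNA, rRNA, RNA polymerase, snRNP, nuclear pore or RNA degradation, with mitochondrial, translation, ribosome and nonsense-mediated decay sets left out. The rule took 48 of the 3883 gene sets listed for the myeloid comparisons, 44 from REACTOME, 4 from KEGG and none from the other databases. All 48 were also among the 3871 sets listed for the cell lines. They held 16 to 200 genes, with a median of 41.5.

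The libraries were RNA-seq profiles of C57BL/6 material. Myeloid cells had been taken from adult animals by depleting CD3e-positive cells, which removes T cells and leaves other lymphoid and erythroid cells. Bone marrow was sampled from B16F10 tumour-bearing animals (3 libraries), YUMM3.3 tumour-bearing animals (2 libraries) and healthy animals (3 libraries). Spleen was sampled from the same 3 conditions with 2 libraries each. YUMM3.3 and B16F10, established mouse melanoma lines, were also profiled in culture with 3 libraries each. The labels do not say where the tumours were placed, how old they were, or whether libraries of a group came from separate animals or cultures.

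A transcript made by RNA polymerase II is capped, spliced by the spliceosome, cleaved and polyadenylated, and exported through the nuclear pore, and it is later deadenylated and degraded. RNA polymerase I makes the large ribosomal RNA precursor, which is cleaved and chemically modified on its way to the ribosome. RNA polymerase III makes tRNAs and other small RNAs, and aminoacyl-tRNA synthetases load each tRNA with its amino acid. These pathways are used by every nucleated cell, and their transcripts are usually more abundant in growing precursors than in mature neutrophils, which make up much of the marrow.

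The values are the authors' gene set enrichment results. For each comparison all genes had been ranked between the groups, and each set has 1 normalised enrichment score (NES), which measures how far its genes gather at one end of that ranking relative to permuted data. NES is given here so that a positive value means higher in the first-named group. A set was counted (called) as higher or lower at a false discovery rate q (FDR q) below 0.05 in the authors' deposited table. There is 1 NES per set and comparison and none per library, so no spread between animals can be shown. The q values do not measure that spread either. Over all listed sets the smallest nominal p above 0 was 0.00103, others were listed as 0, and shuffling the labels of so few libraries gives at the least 0.167 for 2 against 2, 0.1 for 3 against 2 and 0.05 for 3 against 3. Library depth is unknown here. The myeloid reports were read as sets higher in the group named first. With that reading, the B16F10 score minus the YUMM3.3 score, both against healthy, tracked the score of the direct tumour comparison over all 3883 sets (Pearson's r 0.720 in marrow and 0.767 in spleen). Turning a single healthy comparison round gave between -0.493 and 0.493. A reversal of all 3 comparisons of a tissue together would not show in this check.

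Splicing, rRNA and RNA polymerase I sets were higher in marrow of animals with either tumour, tRNA sets were higher in marrow with B16F10, and in spleen most called sets were higher with YUMM3.3. Of the 48 sets, 25 were higher in B16F10-bearing than in healthy marrow (52.1%), where 20.1% of all listed sets were. None was lower at an FDR q below 0.05 or at a nominal p below 0.05, where 5% of all listed sets were lower by q and 13.4% by nominal p. In YUMM3.3-bearing against healthy marrow 21 sets were higher (43.8%, against 9.68% of all listed sets) and 3 were lower (6.25%, against 6.52%). In YUMM3.3-bearing against healthy spleen 29 sets were higher (60.4%, against 15.6%), and none was lower by q or by nominal p, where 5.31% of all listed sets were lower by q and 17.9% by nominal p. In B16F10-bearing against healthy spleen only 4 sets were higher (8.33%, against 16.6%). No set was lower there by q or by nominal p, where 1.6% of all listed sets were lower by q and 6.16% by nominal p.

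The tumours were also compared directly. Between B16F10-bearing and YUMM3.3-bearing marrow 5 sets were higher (10.4%, against 8.09% of all listed sets) and 18 were lower (37.5%, against 8.4%). In B16F10-bearing against YUMM3.3-bearing spleen no set passed FDR q below 0.05 in either direction, while 9.63% of all listed sets were higher and 1.47% lower. At a nominal p below 0.05, 1 set was higher there, where 22.9% of all listed sets were, and 7 were lower, where 6.13% were. In YUMM3.3 against B16F10 cells in culture no set passed FDR q below 0.05 either, while 11.8% of all listed sets were higher and 1.47% lower. At a nominal p below 0.05, 3 sets were higher and none lower in the cultured lines, where 26.5% of all listed sets were higher and 5.06% lower. At a family-wise p below 0.05, 10 sets were higher in B16F10-bearing marrow (4.82% of all listed sets were) and 10 higher and 1 lower in YUMM3.3-bearing marrow (3.24% and 0.901%), each against healthy. At that threshold 1 set was higher in B16F10-bearing spleen (5.25% of all listed sets were) and 4 in YUMM3.3-bearing spleen (6.85%), so the share of the 48 sets in YUMM3.3-bearing spleen was then close to the background.

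The other pathway sets of KEGG, REACTOME, BIOCARTA and PID, 1322 in the myeloid comparisons and 1314 in the lines, give a closer background. Of these, 18.2% were higher and 4.16% lower in B16F10-bearing marrow, and 13.2% higher and 7.87% lower in YUMM3.3-bearing marrow, each against healthy. In spleen 11.4% were higher and 2.95% lower with B16F10, and 15.8% higher and 4.24% lower with YUMM3.3. In B16F10-bearing against YUMM3.3-bearing animals 9% were higher and 12.7% lower in marrow, and 4.08% higher and 1.97% lower in spleen. In YUMM3.3 against B16F10 cells 6.47% were higher and 1.9% lower. Beside either background the RNA machinery sets had a larger share called higher in both marrow comparisons and in YUMM3.3-bearing spleen, and a smaller one in B16F10-bearing spleen.

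**Figure D1:**
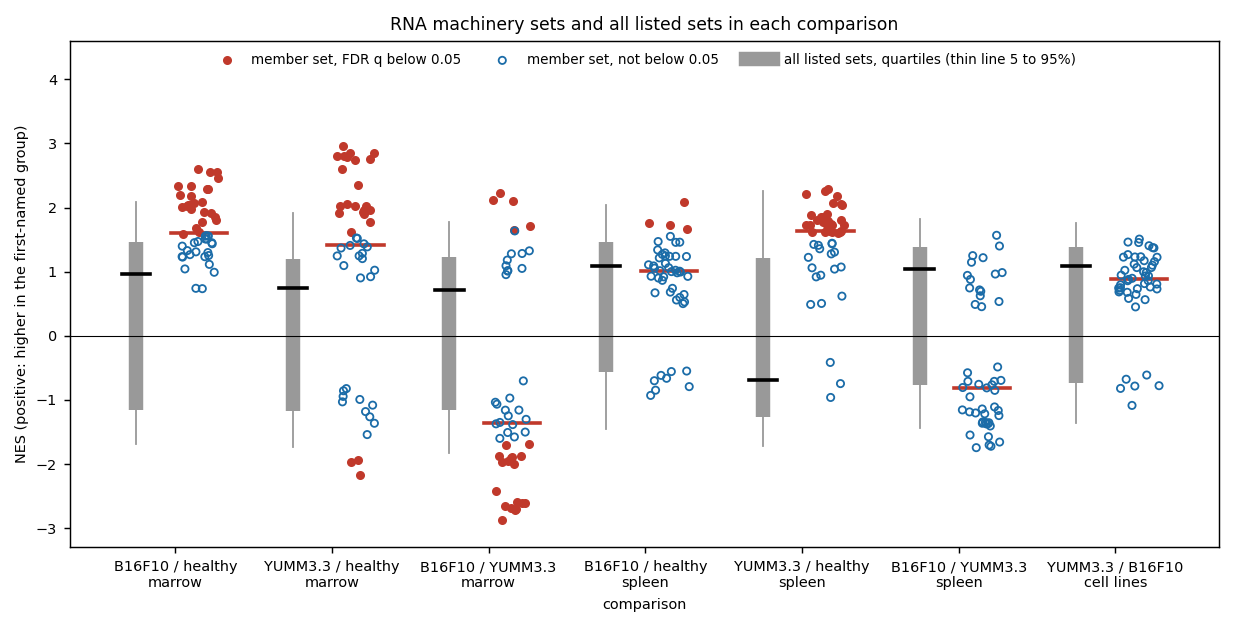
NES of each of the 48 sets (points, filled at FDR q below 0.05) in the 7 comparisons, beside the quartiles and the 5 to 95% range of all listed sets; horizontal lines are medians. In B16F10-bearing against healthy marrow all 48 points lie above 0 with a median of 1.601, and in YUMM3.3-bearing against healthy spleen the median is 1.63 where that of all listed sets is -0.692. By calls, 15.6% of all listed sets were higher in that spleen comparison and 5.31% lower.

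The medians of the 48 sets against healthy animals followed their counts. In the authors' deposited tables the median NES of the 48 sets was 1.601 in B16F10-bearing against healthy marrow (range 0.735 to 2.60), beside 0.956 for all listed sets. It was 1.42 in YUMM3.3-bearing against healthy marrow (range -2.17 to 2.96), beside 0.744 for all listed sets in the authors' deposited table. In the spleen of YUMM3.3-bearing against healthy animals it was 1.63 (range -0.961 to 2.29), beside -0.692 for all listed sets in the authors' deposited table. The median of all listed sets did not follow their calls there, as 15.6% were called higher and 5.31% lower. In B16F10-bearing against healthy spleen the median of the 48 sets was 1.00 (range -0.929 to 2.08), beside 1.09 for all listed sets in the authors' deposited table. By the median the RNA machinery there stood close to the listed sets in general. Its share called higher was smaller, 8.33% against 16.6%. Sets share genes and are not replicates, so these medians carry no error. In these bulk samples, fewer cells of a type and less RNA per cell cannot be told apart.

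**Figure D2:**
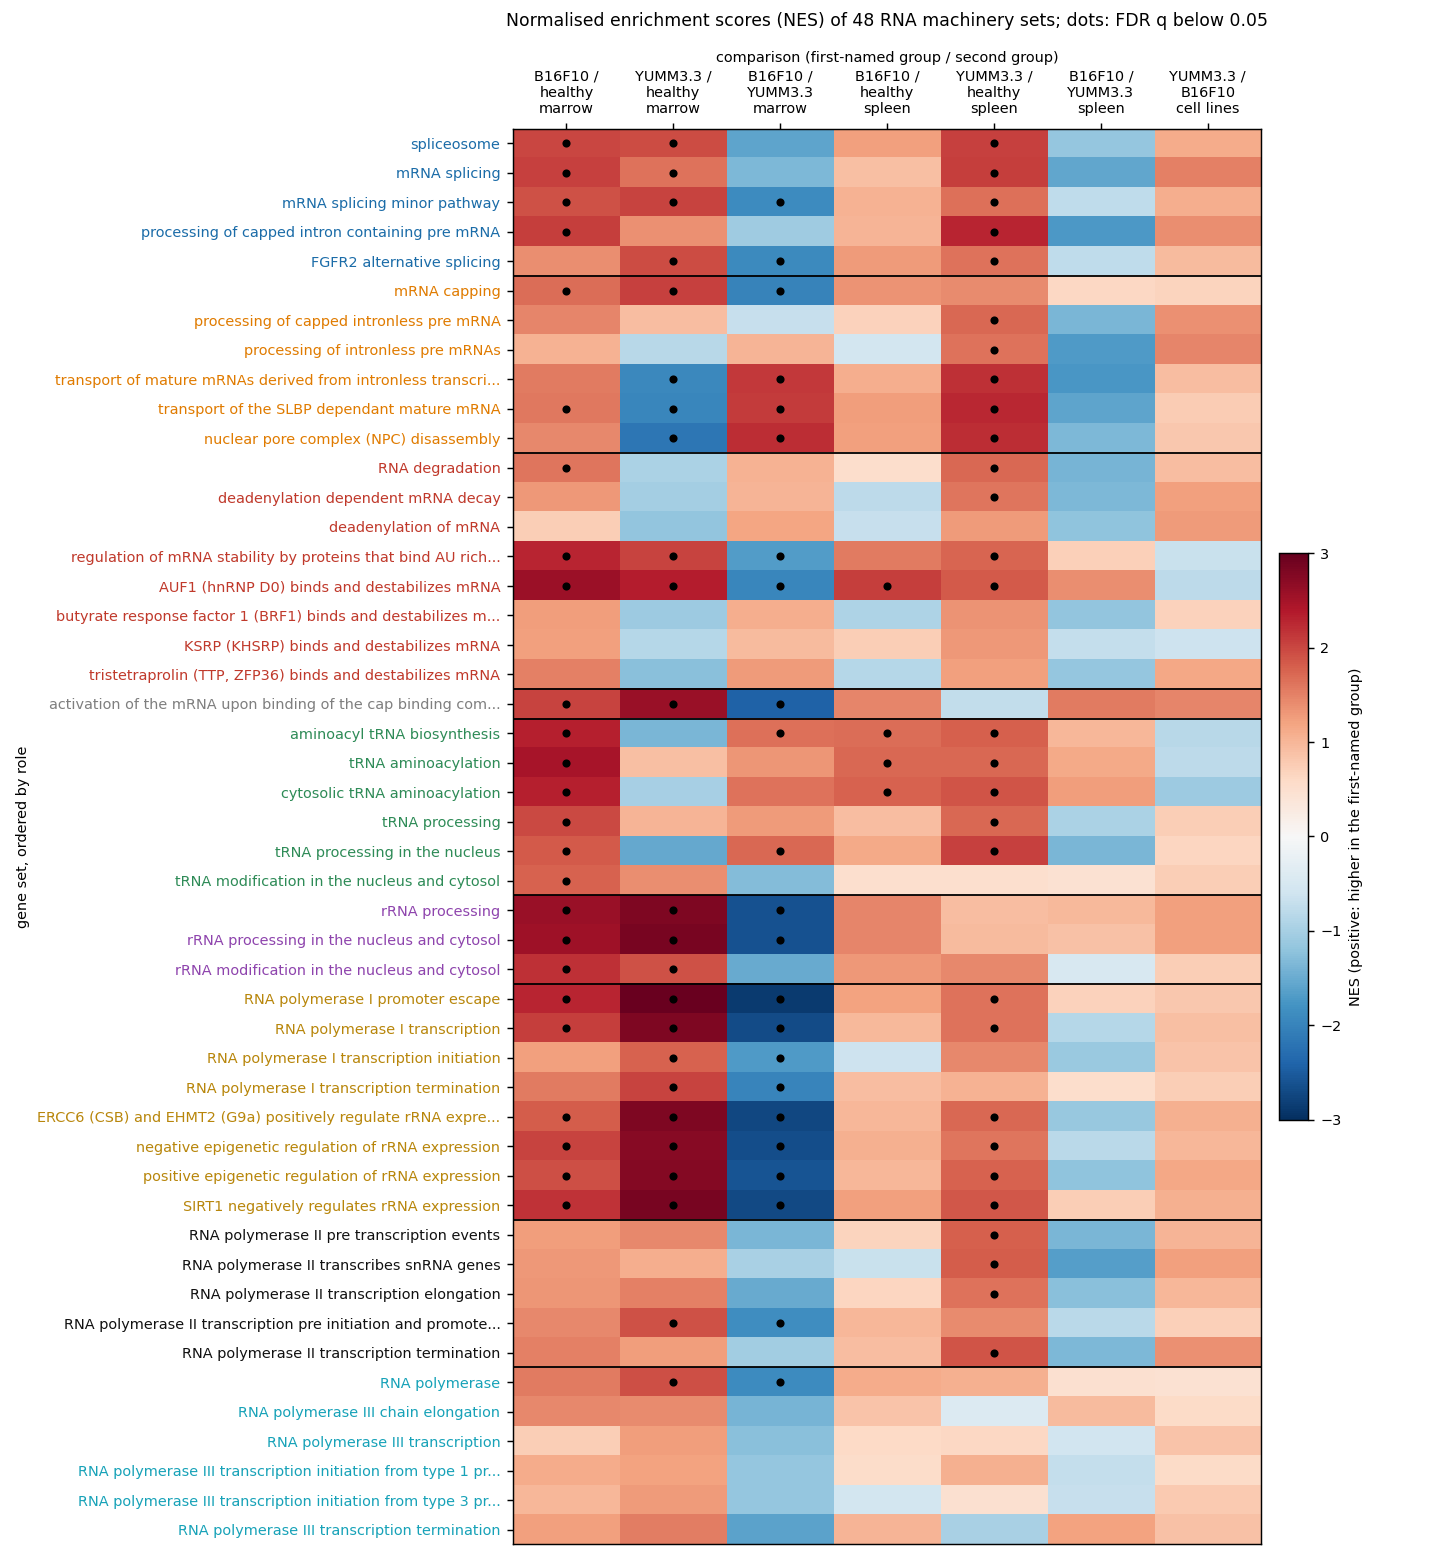
NES of the 48 sets (rows, ordered by role and separated by lines) in the 7 comparisons (columns); red is higher and blue lower in the first-named group, and a dot marks FDR q below 0.05. RNA polymerase I promoter escape reaches 2.96 in YUMM3.3-bearing against healthy marrow, and the nuclear pore and mRNA transport rows change colour between marrow (-2.17 to -1.93) and spleen (2.18 to 2.26) of YUMM3.3-bearing animals.

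Splicing sets were higher with either tumour in marrow and with YUMM3.3 in spleen. The KEGG spliceosome set, 104 genes of the particles that remove introns, had an NES of 2.01 in B16F10-bearing against healthy marrow (FDR q 0.00158) in the authors' deposited table. It had 1.97 in YUMM3.3-bearing against healthy marrow (q 0.00196) and 2.05 in YUMM3.3-bearing against healthy spleen (q 0.00028) in the authors' deposited tables. It reached only 1.24 in B16F10-bearing against healthy spleen (q 0.326) in the authors' deposited table. The tumours did not differ in this set at the threshold, with -1.58 in B16F10-bearing against YUMM3.3-bearing marrow (q 0.0686) and -1.16 in spleen (q 0.486) in the authors' deposited tables.

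Of the 5 splicing sets, 4 were higher in each marrow comparison and all 5 in YUMM3.3-bearing spleen. The set that missed in marrow was another one with each tumour. Processing of capped intron-containing pre-mRNA, with 200 genes the largest set and one that follows a transcript from cap to export, had an NES of 2.08 in B16F10-bearing marrow (q 0.000549) but 1.37 in YUMM3.3-bearing marrow (q 0.191) in the authors' deposited tables. FGFR2 alternative splicing, a set of 23 genes for the exon choice of a growth factor receptor, had 1.398 in B16F10-bearing marrow (q 0.117) and 1.95 in YUMM3.3-bearing marrow (q 0.00233) in the authors' deposited tables. The minor splicing pathway, which removes a rare class of introns, was higher in both, at 1.92 (B16F10-bearing, q 0.00403) and 2.02 (YUMM3.3-bearing, q 0.00104) in the authors' deposited tables.

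Between the tumours, 2 of the 5 splicing sets were lower in B16F10-bearing than in YUMM3.3-bearing marrow. These were the minor pathway at -1.90 (q 0.00663) and FGFR2 alternative splicing at -1.90 (q 0.00622) in the authors' deposited table. In YUMM3.3-bearing against healthy spleen, capped intron-containing pre-mRNA processing had the largest NES of the 48 sets, 2.29 (q 4.79e-06), in the authors' deposited table. The general mRNA splicing set had 2.06 there (q 0.000226), beside 2.05 in B16F10-bearing marrow (q 0.000901) and 1.62 in YUMM3.3-bearing marrow (q 0.0489), each against healthy, in the authors' deposited tables.

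The sets of mRNA export and the nuclear pore moved in opposite directions in the 2 tissues of YUMM3.3-bearing animals. Nuclear pore complex disassembly, which covers the taking apart of the pore when a cell enters mitosis, had an NES of -2.17 in YUMM3.3-bearing against healthy marrow (q 0.000855) and 2.21 in spleen (q 1.66e-05) in the authors' deposited tables. Transport of the SLBP-dependent mature mRNA, the export route of replication-dependent histone messages, had -1.96 in marrow (q 0.00719) and 2.26 in spleen (q 1.32e-05) in the authors' deposited tables. Transport of mature mRNAs from intronless transcripts had -1.93 in marrow (q 0.00935) and 2.18 in spleen (q 2.77e-05) in the authors' deposited tables. These 3 were the members called lower in a tumour-bearing against healthy comparison, a share of 6.25% that is close to the 6.52% of all listed sets and not a result about the RNA machinery as a whole. Of all 253 listed sets lower in YUMM3.3-bearing marrow, 101 (39.9%) were likewise higher in YUMM3.3-bearing spleen. The difference between the tissues was not tested.

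With B16F10 these 3 sets had positive NES in both tissues. The histone message set was higher in B16F10-bearing against healthy marrow at 1.59 (q 0.0465) in the authors' deposited table. The intronless transport set had 1.56 (q 0.0541) and pore disassembly 1.45 (q 0.0907) there, which did not pass, in the authors' deposited table. The direct comparison of the tumours in marrow, B16F10-bearing against YUMM3.3-bearing, passed for all 3. Pore disassembly had 2.22 (q 0.000226), the histone message set 2.10 (q 0.00165) and intronless transport 2.12 (q 0.0012) in the authors' deposited table. The spleen of B16F10-bearing against healthy animals gave 1.24 for pore disassembly (q 0.322), 1.25 for the histone message set (q 0.315) and 1.09 for intronless transport (q 0.507) in the authors' deposited table.

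Nuclear tRNA processing, which like the 3 sets above is known to hold the nucleoporins, had the same signs. In YUMM3.3-bearing against healthy animals it had -1.54 in marrow (q 0.0937) and 2.05 in spleen (q 0.000308) in the authors' deposited tables. It was higher in B16F10-bearing than in YUMM3.3-bearing marrow at 1.72 (q 0.0361) in the authors' deposited table. All 4 sets reached their peak at the same gene in B16F10-bearing against healthy marrow, rank 4004 of the ranking, in the authors' deposited table. They therefore do not count as 4 separate observations. Broader sets that each shared a peak with some of the 4 in a spleen comparison had positive NES in YUMM3.3-bearing marrow. Against healthy marrow tRNA processing had 1.02 (q 0.616) and capped intron-containing pre-mRNA processing 1.37 (q 0.191) there in the authors' deposited table. Neither passed. The KEGG cell cycle set, whose genes drive DNA replication and division, was lower in YUMM3.3-bearing marrow at -1.74 (q 0.0326) and higher in YUMM3.3-bearing spleen at 2.61 (q listed as 0) and in B16F10-bearing against YUMM3.3-bearing marrow at 1.94 (q 0.00765) in the authors' deposited tables. It parted from the pore sets in B16F10-bearing against healthy spleen, where it was higher at 2.11 (q 6.35e-05) and none of the 4 passed, in the authors' deposited table. Between B16F10-bearing and YUMM3.3-bearing spleen it had 0.963 (q 0.684) while the 4 sets ran from -1.74 to -1.35 in the authors' deposited table. Its part in the nuclear pore result was not tested.

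Capping was called in marrow, and the 3' end sets were called in spleen. The mRNA capping set, 25 genes for adding the 5' cap that are known to include polymerase II subunits, was higher in marrow with either tumour, at 1.68 in B16F10-bearing (q 0.0268) and 2.05 in YUMM3.3-bearing animals (q 0.000731) against healthy in the authors' deposited tables. It was lower in B16F10-bearing than in YUMM3.3-bearing marrow at -2.00 (q 0.00211) in the authors' deposited table, the opposite sign to the export sets. Processing of capped intronless pre-mRNA and of intronless pre-mRNAs, which cover 3' end formation, were higher in YUMM3.3-bearing against healthy spleen at 1.72 (q 0.0143) and 1.64 (q 0.0287) and passed in no other comparison in the authors' deposited tables. In YUMM3.3-bearing against healthy marrow they had 0.921 (q 0.765) and -0.823 (q 0.877) in the authors' deposited table, neither of which passed.

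**Figure D3:**
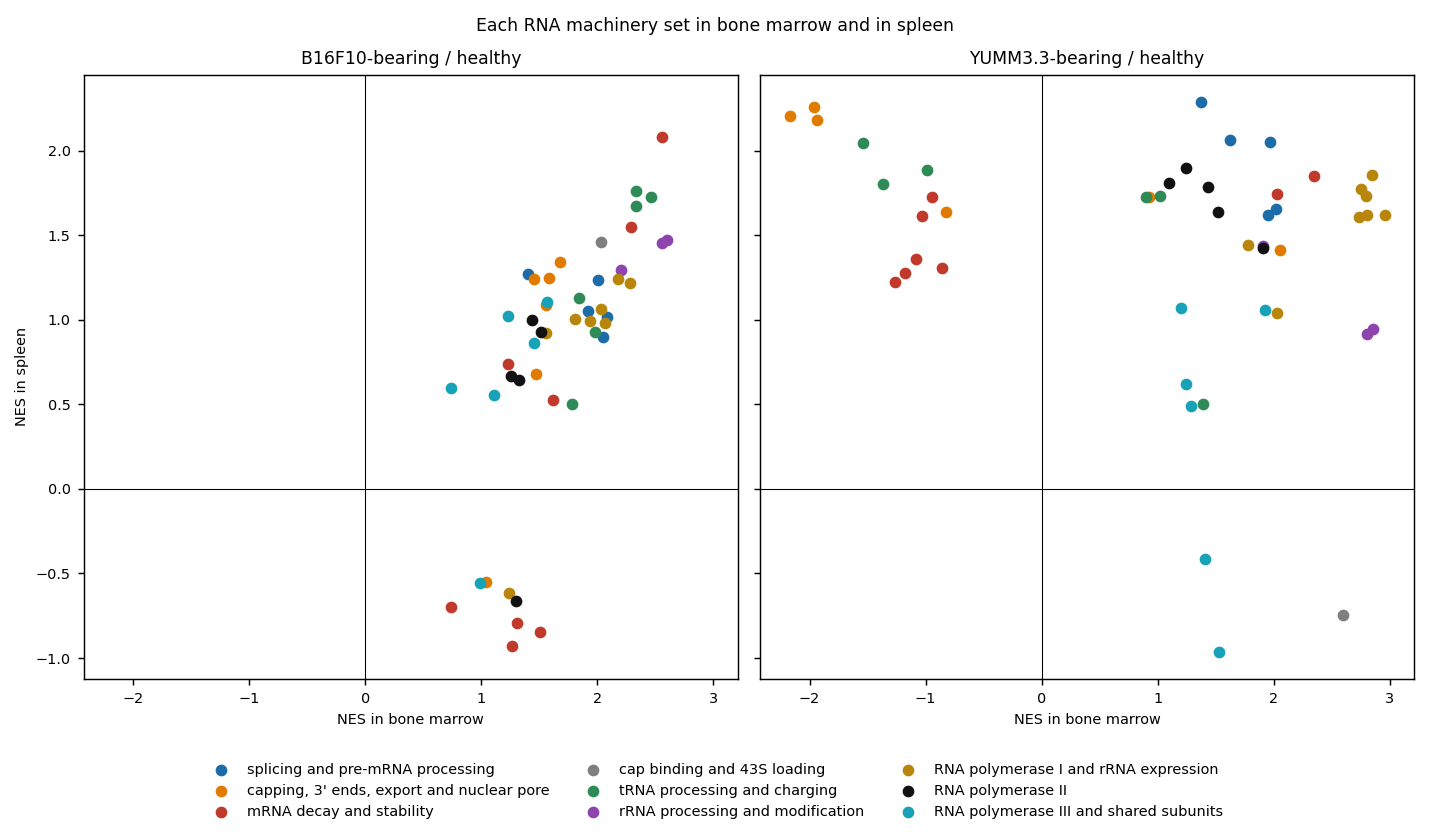
NES of each set in marrow (horizontal) and in spleen (vertical), for B16F10-bearing (left) and YUMM3.3-bearing (right) against healthy animals, coloured by role. On the right the 3 export and pore sets sit at the upper left, near -2 in marrow and above 2 in spleen, and the rRNA processing sets at the far right have an NES below 1 in spleen.

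Among the 8 decay and stability sets, the AUF1 set and the broader AU-rich set had the largest NES in each comparison with healthy animals. AUF1 (hnRNP D0) is an RNA-binding protein that marks AU-rich messages for decay. How many of all listed sets were higher in all 4 tumour-bearing against healthy comparisons was not counted. Of the 48, only the REACTOME set for AUF1, with 52 genes, was higher in each. Its NES was 2.56 in B16F10-bearing marrow (q listed as 0), 2.35 in YUMM3.3-bearing marrow (q listed as 0), 2.08 in B16F10-bearing spleen (q 9.89e-05) and 1.85 in YUMM3.3-bearing spleen (q 0.00405) in the authors' deposited tables. It was lower in B16F10-bearing than in YUMM3.3-bearing marrow, at -1.95 (q 0.00383), in the authors' deposited table. The broader set on proteins that bind AU-rich elements had 2.29 in B16F10-bearing marrow (q listed as 0), 2.03 in YUMM3.3-bearing marrow (q 0.000964) and 1.74 in YUMM3.3-bearing spleen (q 0.0124) in the authors' deposited tables. In B16F10-bearing spleen it had 1.55 (q 0.0765), which did not pass, in the authors' deposited table.

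Both sets are known to list the proteasome, the protein-degrading complex, beside the RNA-binding proteins. The KEGG proteasome set, chosen after its values were seen, had an NES of 2.52 in B16F10-bearing marrow, 2.33 in YUMM3.3-bearing marrow, 2.06 in B16F10-bearing spleen and 1.83 in YUMM3.3-bearing spleen in the authors' deposited tables. Its part in the AUF1 result was not tested. The companion sets of 16 genes each, for the decay factors tristetraprolin (ZFP36), BRF1 and KSRP, were called in no comparison. In the authors' deposited tables their NES ran from 1.23 to 1.51 in B16F10-bearing marrow and from -1.26 to -0.857 in YUMM3.3-bearing marrow, each against healthy.

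The general decay machinery was called in 2 comparisons. The KEGG RNA degradation set, 47 genes of the exosome, decapping and deadenylation enzymes, was higher in B16F10-bearing against healthy marrow at 1.62 (q 0.0396) and in YUMM3.3-bearing against healthy spleen at 1.72 (q 0.0143) in the authors' deposited tables. It had -0.945 in YUMM3.3-bearing marrow (q 0.706) and 0.528 in B16F10-bearing spleen (q 0.992) against healthy in the authors' deposited tables. Deadenylation-dependent decay was higher in YUMM3.3-bearing spleen alone among the 4 comparisons with healthy animals, at 1.62 (q 0.034), in the authors' deposited table. Activation of mRNA by the cap-binding complex, the set that loads the small ribosomal subunit, was higher in B16F10-bearing marrow at 2.03 (q 0.00112) and in YUMM3.3-bearing marrow at 2.60 (q listed as 0) in the authors' deposited tables. It had -0.745 in YUMM3.3-bearing spleen (q 0.937) in the authors' deposited table. In B16F10-bearing marrow it peaked at rank 4843, as did rRNA processing and its subset for the nucleus and cytosol, in the authors' deposited table. All 3 sets are known to hold ribosomal proteins, so their values are not separate observations.

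All 6 tRNA sets were higher in B16F10-bearing against healthy marrow, and none of the 6 passed FDR q below 0.05 in either direction in YUMM3.3-bearing against healthy marrow. The REACTOME tRNA aminoacylation set, 41 genes for charging tRNAs, had an NES of 2.46 in B16F10-bearing marrow (q listed as 0) and 0.902 in YUMM3.3-bearing marrow (q 0.797) in the authors' deposited tables. The KEGG aminoacyl-tRNA biosynthesis set had 2.34 (q listed as 0) in B16F10-bearing marrow and -1.36 in YUMM3.3-bearing marrow (q 0.182) in the authors' deposited tables. In marrow 2 of the 6 passed in the direct comparison of the tumours, the KEGG set at 1.65 (q 0.0499) and nuclear tRNA processing at 1.72 (q 0.0361). The REACTOME set missed at 1.32 (q 0.214) and its cytosolic part of 24 genes at 1.64 (q 0.0546) in the authors' deposited table. Also missing were tRNA processing at 1.28 (q 0.252) and, with the opposite sign, tRNA modification at -1.30 (q 0.254) in the authors' deposited table.

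In spleen the charging sets were higher with either tumour. With B16F10 against healthy animals the KEGG set had 1.67 (q 0.0323), the REACTOME set 1.73 (q 0.02) and the cytosolic set 1.76 (q 0.0142) in the authors' deposited table. With AUF1 these were the only 4 of the 48 sets that passed in that comparison. In YUMM3.3-bearing against healthy spleen the 3 sets had 1.80 (q 0.00677), 1.73 (q 0.0139) and 1.89 (q 0.00267) in the authors' deposited table. The 3 share their synthetases, and in B16F10-bearing marrow all 3 peaked at rank 2963, where 92% of the cytosolic set had been met, in the authors' deposited table. The charging enzymes of mitochondria, a set outside the 48, had 1.62 in B16F10-bearing marrow (q 0.0396) and passed in no other comparison in the authors' deposited tables. Among the other tRNA sets, tRNA processing, 88 genes from end trimming to base modification, was higher in B16F10-bearing marrow at 1.98 (q 0.00217) and in YUMM3.3-bearing spleen at 1.73 (q 0.0135) in the authors' deposited tables.

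Ribosomal RNA processing had the largest NES of the 48 sets in B16F10-bearing against healthy marrow. The REACTOME rRNA processing set, 150 genes known to include most ribosomal proteins, had 2.60 in B16F10-bearing marrow and 2.81 in YUMM3.3-bearing marrow, with q listed as 0 for both, in the authors' deposited tables. It was lower in B16F10-bearing than in YUMM3.3-bearing marrow at -2.61 (q listed as 0) in the authors' deposited table. Its subset for the nucleus and cytosol, 145 genes, had 2.55 in B16F10-bearing marrow and 2.85 in YUMM3.3-bearing marrow, and -2.61 in B16F10-bearing against YUMM3.3-bearing marrow, in the authors' deposited tables. In spleen the set of 150 genes passed with neither tumour, at 1.47 in B16F10-bearing (q 0.120) and 0.919 in YUMM3.3-bearing animals (q 0.755) against healthy in the authors' deposited tables. The KEGG ribosome set had 2.12 in B16F10-bearing marrow and 3.13 in YUMM3.3-bearing marrow, and -1.84 in YUMM3.3-bearing spleen (q 0.0217), in the authors' deposited tables. What share of the rRNA processing result those ribosomal proteins make up was not tested.

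The rRNA modification set, known to hold few ribosomal proteins, has 50 genes, among them those that guide methylation and pseudouridylation of rRNA in the nucleolus. It was higher in B16F10-bearing marrow at 2.20 (q 8.35e-05) and in YUMM3.3-bearing marrow at 1.91 (q 0.0039) in the authors' deposited tables. Between the tumours in marrow it had -1.50 (q 0.101), which did not pass, in the authors' deposited table. With B16F10 86% of its genes lay before the peak at rank 4776, against 30% before rank 1449 in YUMM3.3-bearing marrow, in the authors' deposited tables.

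RNA polymerase I and rRNA expression comprised 8 sets. All 8 were higher in YUMM3.3-bearing against healthy marrow and all 8 were lower in B16F10-bearing than in YUMM3.3-bearing marrow. In B16F10-bearing against healthy marrow 6 of 8 were higher. RNA polymerase I promoter escape had the largest NES of the 48 sets in YUMM3.3-bearing marrow, 2.96, beside 2.28 in B16F10-bearing marrow, with q listed as 0 for both, in the authors' deposited tables. Between B16F10-bearing and YUMM3.3-bearing marrow it had -2.87 (q listed as 0) in the authors' deposited table. RNA polymerase I transcription, the largest of the 8 with 82 genes, had 2.07 in B16F10-bearing marrow (q 0.000662) and 2.81 in YUMM3.3-bearing marrow (q listed as 0) in the authors' deposited tables.

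Among these sets those named for opposing regulation of rRNA genes had the same sign in marrow. The scores are of sets and not of the regulators themselves. SIRT1 is a deacetylase that silences rRNA genes, and its set had 2.17 in B16F10-bearing marrow (q 0.000129) and 2.85 in YUMM3.3-bearing marrow (q listed as 0) in the authors' deposited tables. Positive epigenetic regulation of rRNA expression had 1.94 in B16F10-bearing marrow (q 0.00339) and 2.76 in YUMM3.3-bearing marrow (q listed as 0) in the authors' deposited tables. Negative regulation had 2.03 (q 0.00116) and 2.73 (q listed as 0) in B16F10-bearing and in YUMM3.3-bearing marrow in the authors' deposited tables. The set for ERCC6 (CSB) and EHMT2 (G9a), which activate rRNA genes, had 1.81 (q 0.0106) in B16F10-bearing marrow and 2.80 (q listed as 0) in YUMM3.3-bearing marrow, and -2.72 (q listed as 0) in B16F10-bearing against YUMM3.3-bearing marrow, in the authors' deposited tables. Of the 8 sets, 6 are known to hold the core histones, the proteins that package all chromatin, and these 6 peaked between ranks 1076 and 1115 in YUMM3.3-bearing marrow in the authors' deposited table. The 2 without them, transcription initiation and termination, had lower NES in YUMM3.3-bearing marrow, 1.78 (q 0.0148) and 2.03 (q 0.000952), and did not pass in B16F10-bearing marrow, at 1.23 (q 0.230) and 1.55 (q 0.0549), in the authors' deposited tables. How much of the result rests on histone transcripts was not tested.

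**Figure D4:**
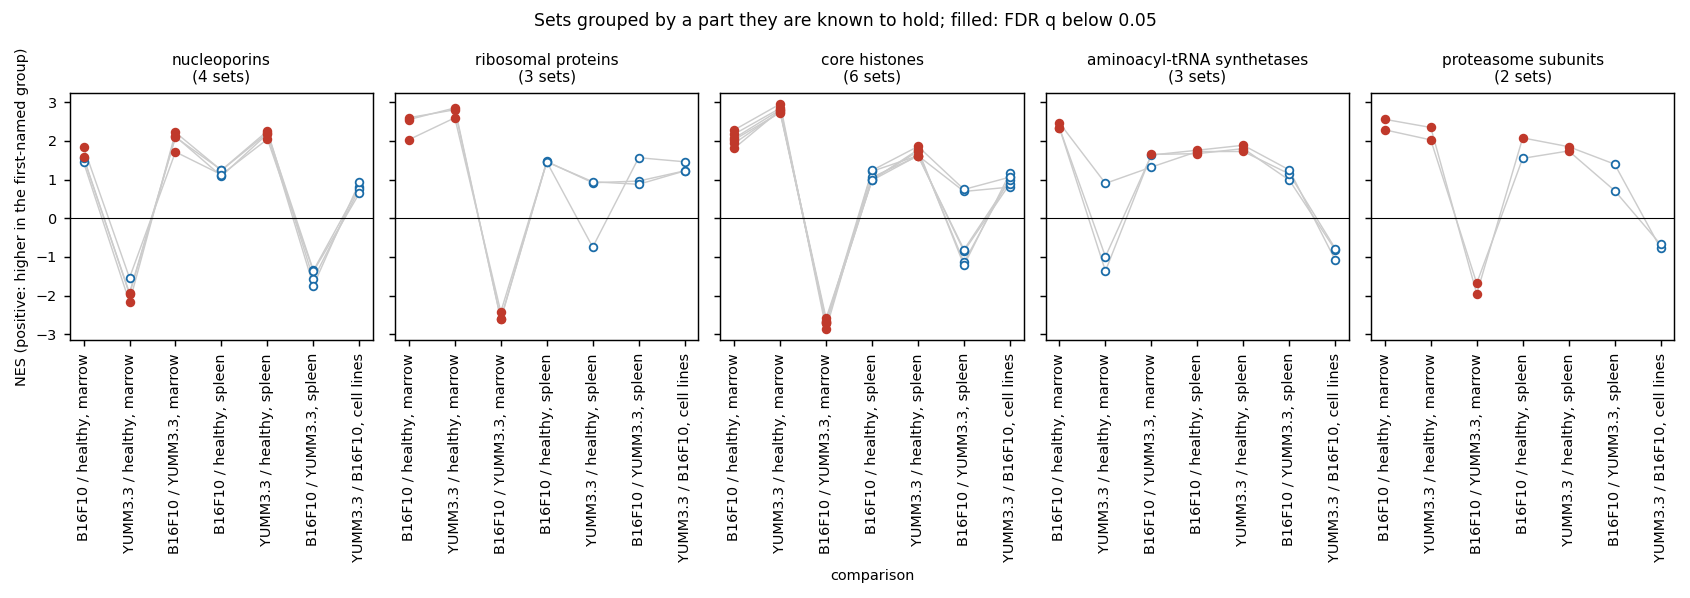
NES across the 7 comparisons for the 18 sets grouped by a component they are known to share; each line is 1 set and filled points have FDR q below 0.05. The 4 nucleoporin sets drawn and the histone sets have opposite signs in YUMM3.3-bearing against healthy marrow (-2.17 to -1.54 and 2.73 to 2.96). Their signs are the same in YUMM3.3-bearing against healthy spleen (2.05 to 2.26 and 1.61 to 1.86). Not drawn with the nucleoporin sets are tRNA processing and capped intron-containing pre-mRNA processing, which had 1.02 and 1.37 in YUMM3.3-bearing against healthy marrow.

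In spleen 6 of the 8 sets were higher with YUMM3.3 and none with B16F10. The SIRT1 set had 1.86 in YUMM3.3-bearing spleen (q 0.00372) and 1.24 in B16F10-bearing spleen (q 0.323) in the authors' deposited tables. Promoter escape had 1.62 (q 0.0332) in YUMM3.3-bearing spleen and 1.21 (q 0.349) in B16F10-bearing spleen in the authors' deposited tables. The direct comparison of the tumours in spleen gave 0.746 for the SIRT1 set (q 0.922) and 0.694 for promoter escape (q 0.957) in the authors' deposited table, so no difference between the tumours was shown there.

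The RNA polymerase II sets passed mainly in YUMM3.3-bearing spleen. There 4 of 5 were higher, led by transcription termination at 1.90 (q 0.00248), pre-transcription events, the largest with 59 genes, at 1.78 (q 0.00821) and snRNA gene transcription at 1.81 (q 0.00619) in the authors' deposited table. None of the 5 passed in B16F10-bearing marrow, where their NES ran from 1.25 to 1.51, or in B16F10-bearing spleen, from -0.663 to 1.00, in the authors' deposited tables. In YUMM3.3-bearing marrow 1 of 5 was higher, pre-initiation and promoter opening at 1.91 (q 0.00397), and it was lower in B16F10-bearing than in YUMM3.3-bearing marrow at -1.87 (q 0.00856) in the authors' deposited tables.

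In the role of RNA polymerase III and shared subunits only 1 of 6 sets was called. The 5 REACTOME sets of polymerase III transcription passed in no comparison. Their NES ran from 0.740 to 1.45 in B16F10-bearing marrow and from 1.20 to 1.52 in YUMM3.3-bearing marrow in the authors' deposited tables. The KEGG RNA polymerase set, 27 subunits of the 3 polymerases, was higher in YUMM3.3-bearing against healthy marrow at 1.92 (q 0.00337) in the authors' deposited table. It was lower in B16F10-bearing than in YUMM3.3-bearing marrow at -1.88 (q 0.00795), and it missed in B16F10-bearing against healthy marrow at 1.56 (q 0.0523), in the authors' deposited tables. In B16F10-bearing against YUMM3.3-bearing marrow this set peaked at rank 962 in the authors' deposited table, as did 6 others: mRNA capping, FGFR2 alternative splicing, polymerase II pre-initiation, and the chain elongation and both initiation sets of polymerase III. These sets are known to share polymerase subunits, so their values are not separate observations.

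The sets higher in both marrow comparisons were reached at different depths of the ranking. The leading edge is the part of a set met before its running sum peaks, and ranks count from the end of the group in which the set is higher. All 16 sets called higher with both tumours in marrow peaked deeper in the B16F10 comparison, at a median rank of 4427, against 1480 in the YUMM3.3 comparison, in the authors' deposited tables. All 16 also had a larger share of their genes in the leading edge with B16F10. The rRNA processing set had 80% of its genes before rank 4843 in B16F10-bearing marrow and 42% before rank 1511 in YUMM3.3-bearing marrow in the authors' deposited tables. The mRNA capping set had 64% before rank 3795 with B16F10 and 36% before rank 804 with YUMM3.3 in the authors' deposited tables.

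**Figure D5:**
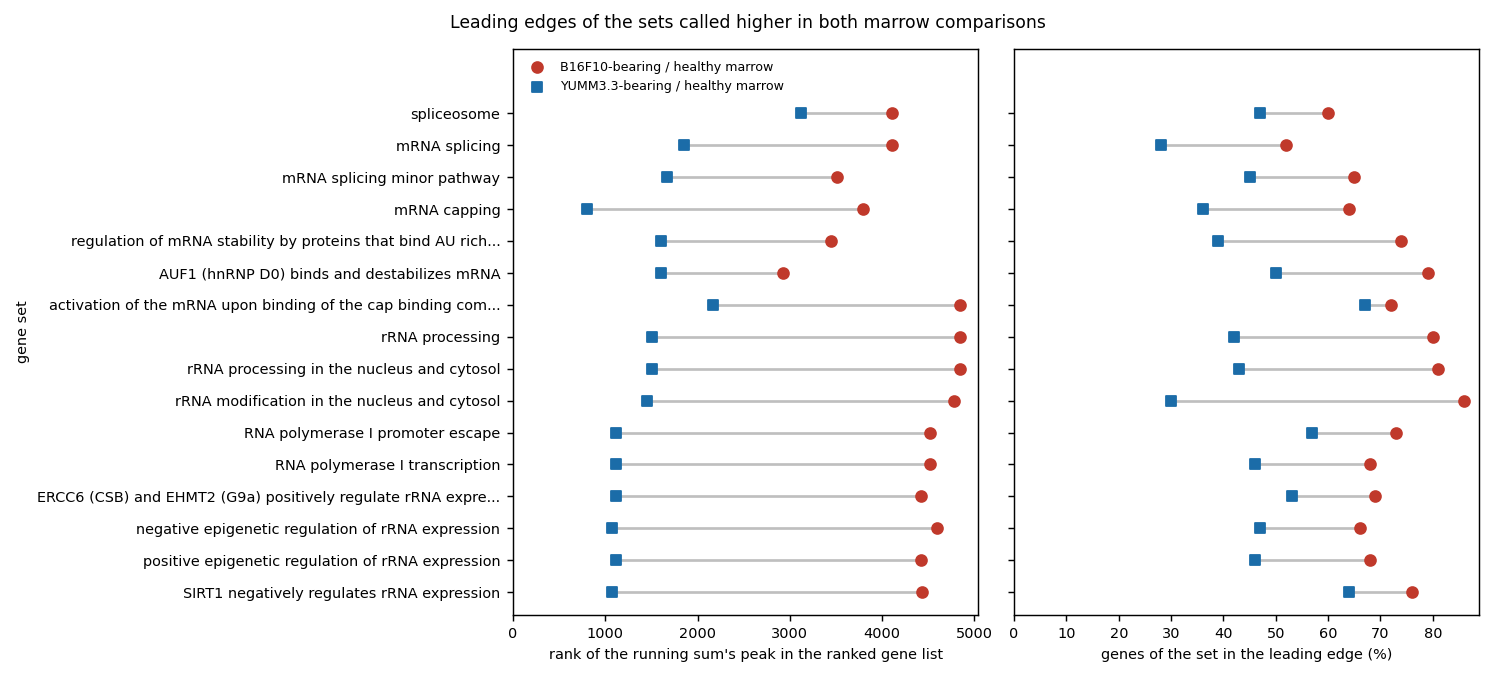
Rank of the running sum's peak (left) and share of the set in the leading edge in percent (right) for the 16 sets called higher in both marrow comparisons with healthy animals; circles are B16F10-bearing and squares YUMM3.3-bearing. Every circle lies to the right of its square, with median ranks of 4427 and 1480.

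Across all called sets the same contrast held. The 25 sets higher in B16F10-bearing marrow had 47 to 92% of their genes in the leading edge (median 66%), within 20 to 33% of the ranking, in the authors' deposited table. The 21 higher in YUMM3.3-bearing marrow had 28 to 67% (median 43%), within 5 to 21% of the ranking, in the authors' deposited table. All listed sets higher in those comparisons showed the same order, with a median share of 47%, within a median of 19% of the ranking, with B16F10 and 39%, within 11%, with YUMM3.3 in the authors' deposited tables. The members' medians were 28% of the ranking with B16F10 and 8% with YUMM3.3 in the authors' deposited tables. The 29 sets higher in YUMM3.3-bearing spleen had 27 to 81% (median 54%), within 5 to 37% of the ranking, in the authors' deposited table. Both marrow comparisons share the 3 healthy libraries.

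The overlap of marrow and spleen was set beside that of all listed sets. With B16F10, 4 sets were higher in both tissues, which is 16% of the 25 in marrow and 100% of the 4 in spleen; over all listed sets 396 were shared, 50.7% of the marrow list and 61.6% of the spleen list. With YUMM3.3, 12 were higher in both, which is 57.1% of the 21 in marrow and 41.4% of the 29 in spleen. These shares were no larger than the 60.4% of all 48 sets higher in spleen and the 43.8% higher in marrow. Over all listed sets 97 were shared, 25.8% and 16%, where 15.6% were higher in spleen and 9.68% in marrow. Across the 48 sets the NES of marrow and spleen had a Pearson's r of 0.71 and a Spearman's rho of 0.76 with B16F10, and -0.27 and -0.25 with YUMM3.3, in the authors' deposited tables. Over all 3883 listed sets r was 0.558 and rho 0.640 with B16F10, and -0.170 and -0.185 with YUMM3.3, in the authors' deposited tables. The members thus had the signs of the listed sets in general. Sets share genes, and no p is given. Over the 4 comparisons with healthy animals, 9 sets were never higher, 14 were higher in 1, 11 in 2, 13 in 3 and 1 in all 4. These counts were not made over all listed sets, so whether they are particular to the RNA machinery is not known.

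In the cultured lines no member passed the threshold. In YUMM3.3 against B16F10 cells 42 of 48 NES were above 0, with a median of 0.887 (range -1.09 to 1.51), beside 1.08 for all listed sets, in the authors' deposited table. The largest was mRNA splicing at 1.51 (q 0.0820) and the lowest was cytosolic tRNA aminoacylation at -1.09 (q 0.602) in the authors' deposited table. The KEGG spliceosome set had 1.12 (q 0.421) and RNA degradation 0.934 (q 0.698) in the authors' deposited table. At an FDR q below 0.25, 7 of the 48 were higher (14.6%), where 35.4% of all listed sets were. A miss at the threshold does not show that the lines have equal levels. In B16F10-bearing against YUMM3.3-bearing spleen 32 of 48 NES were below 0, with a median of -0.809, and the lowest was intronless mRNA transport at -1.74 (q 0.0640) in the authors' deposited table.

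Sets named for other cell classes also had called scores in the same comparisons. Of 5 KEGG sets on lymphoid and blood cell lineages, the B cell receptor set had -1.87 in B16F10-bearing marrow (q 0.0133), -1.72 in YUMM3.3-bearing marrow (q 0.0366) and -2.25 in B16F10-bearing spleen (q 0.000128) in the authors' deposited tables. In YUMM3.3-bearing spleen it had 0.718 (q 0.962) in the authors' deposited table. The T cell receptor set passed only in B16F10-bearing spleen among the comparisons with healthy animals, at -2.37 (q listed as 0), in the authors' deposited table. The primary immunodeficiency set, made largely of lymphocyte genes, had -2.53 in B16F10-bearing marrow and -2.20 in B16F10-bearing spleen, and did not pass with YUMM3.3, at 1.16 in marrow and -1.01 in spleen, in the authors' deposited tables. The hematopoietic cell lineage set had -1.97 in B16F10-bearing marrow (q 0.0048) and -2.18 in YUMM3.3-bearing spleen (q 0.00154) in the authors' deposited tables. The natural killer set passed in none of the 4. The KEGG oxidative phosphorylation set had 2.44 in B16F10-bearing marrow, 2.95 in YUMM3.3-bearing marrow, 1.85 in B16F10-bearing spleen and -0.584 in YUMM3.3-bearing spleen in the authors' deposited tables. Whether cell classes shifted, and what part this had in the RNA machinery results, was not tested, and NES cannot show whether a marker is absent.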

How the data were processed

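The 20 libraries comprised 14 of myeloid cells and 6 of melanoma lines, grouped by their labels for tissue, disease state and cell type. Per the submitters' processing notes, FastQC 0.11.8, STAR 2.7.1a, featureCounts 1.6.0, DESeq2 1.22.2 and the mm10 build were used, with no role stated for any of them. The 14 deposited reports, 2 directions for each of 7 comparisons, hold per the file headers a set's size, enrichment score, normalised score, rank at maximum and leading edge. The p-values and q-values are those the authors deposited. The permutation scheme behind them is not stated in the labels or headers. Member genes and library values were not analysed here, so no model over libraries was fitted, no SD computed and no sequence shown.

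Both directions were joined per comparison, and the sign of the normalised score was set by the first-named group, because the sign of the deposited scores differed between reports. Sets were given 9 roles by words in their names. Named are the KEGG sets, the largest set of each role, the 6 largest scores past the threshold per comparison and direction, sets called in a direction taken by 3 or fewer, and sets called in opposite directions. Further sets are named to complete a role and were chosen after their values were seen. The members, lists and groupings by shared components were chosen with earlier results of these data known. The joining and counting were tested on simulated reports. Python 3.11.15, pandas 2.3.3, numpy 2.4.6 and scipy 1.17.1 were used. Alternatives were other thresholds, set sizes 25 to 200, REACTOME alone, the mean, and leaving out the RNA polymerase I sets.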

Additional observations from a re-analysis of the deposited data

Results flagged for a closer look

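The sets flagged in marrow come from the authors' own direct comparison of the tumours, with 3 B16F10-bearing and 2 YUMM3.3-bearing libraries. Its q values do not measure the spread between animals. In B16F10-bearing against YUMM3.3-bearing marrow 5 sets were higher and 18 lower at an FDR q below 0.05. The 5 are 10.4% of the 48, close to the 8.09% of all listed sets, while the 18 are 37.5%, against 8.4%. The 18 lower sets include all 8 of RNA polymerase I and rRNA expression and 2 of the 3 rRNA processing sets.

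The 5 higher sets each had a positive NES in B16F10-bearing and a negative one in YUMM3.3-bearing marrow against healthy animals. In the direct comparison of the authors' deposited table, nuclear pore complex disassembly had an NES of 2.22, transport of intronless mRNAs 2.12 and transport of the SLBP-dependent mRNA 2.1. Nuclear tRNA processing had 1.72 and KEGG aminoacyl-tRNA biosynthesis 1.65 in the authors' deposited table. For the last of these q was 0.0499, just inside the threshold, and neither it nor nuclear tRNA processing passed in YUMM3.3-bearing against healthy marrow. The 3 comparisons of marrow share their libraries.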

How the results depend on the processing

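Among 98 recomputed values, shares could not change direction, and no median or mean NES changed sign. Shares of 0 that stayed at 0 were counted as unchanged. In all, 81 values stayed within 1.5 times the main count or share, or within the 95% interval of the median over sets. Sets share genes and are not replicates, so that interval is only a yardstick for change and no error of the median. At an FDR q below 0.25, the share of the 48 sets higher was 89.6% in B16F10-bearing marrow, 18.8% in B16F10-bearing spleen (each against healthy), 4.17% in B16F10-bearing against YUMM3.3-bearing spleen and 14.6% in YUMM3.3 against B16F10 cells, where 37.1%, 34.7%, 28.4% and 35.4% of all listed sets were. The share lower was 10.4% in YUMM3.3-bearing against healthy marrow and 12.5% in B16F10-bearing against YUMM3.3-bearing spleen, where 20.1% and 5.1% of all listed sets were. At a family-wise p below 0.05, 20.8% were higher in B16F10-bearing marrow, 20.8% higher and 2.08% lower in YUMM3.3-bearing marrow, 2.08% higher in B16F10-bearing spleen and 8.33% higher in YUMM3.3-bearing spleen, each against healthy. In B16F10-bearing against YUMM3.3-bearing marrow 4.17% were higher and 18.8% lower, where 1.21% and 2.16% of all listed sets were. The mean NES was 1.023 in YUMM3.3-bearing marrow, 0.802 in B16F10-bearing spleen, -0.792 between the tumours in marrow and -0.468 in spleen. Restricting to sets of 25 to 200 genes, to REACTOME, or to sets other than the 8 of RNA polymerase I kept all 21 values each within those ranges. Without those 8, the share lower in B16F10-bearing against YUMM3.3-bearing marrow was 25% (10 of 40 sets) and the share higher in YUMM3.3-bearing against healthy marrow 32.5%. No paired analysis was possible because the tables give 1 value per comparison and the labels number no replicates, so that the numbers used here only name libraries. No replicate was left out, since library values were not analysed here. Depth is unknown.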
